A study of Mus musculus with 8 samples.

Results

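The genes described here mark or set the epithelial and the mesenchymal state of a cell. They were listed by name as textbook markers and regulators of these states, with earlier results of these data known. The epithelial genes were Cdh1, Epcam and Esrp1, and the mesenchymal genes were Cdh2, Vim, Snai1, Snai2, Twist1, Zeb1 and Zeb2. These 10 genes were among 22878 gene entries with 22499 distinct names, and each had 1 entry with an expression value in every library. They were followed in 8 polyA RNA-seq libraries from 5 mouse pluripotent cell lines. R1 is an embryonic stem cell (ESC) line and has 2 libraries. The other lines are secondary induced pluripotent stem cell (iPSC) lines, made from somatic cells of 8-week-old all-iPSC mice. Those mice carry doxycycline-inducible Oct4, Sox2, c-Myc and Klf4 in every cell, so that doxycycline alone restarts reprogramming. Line 16-6 came from c-Kit-positive hematopoietic progenitors of bone marrow (2 libraries), and line 32 came from adipocyte progenitors of inguinal fat (2 libraries). Line S8 came from epidermal cells of abdominal skin (1 library), and line T2 came from cells of the stomach mucosa (1 library). Each origin is thus represented by a single line, so that origin and line cannot be told apart. The extraction text of the labels speaks of embryos, whereas the study's methods describe RNA from pellets of these cells. All lines were kept with leukemia inhibitory factor and serum on mouse embryonic fibroblasts (MEFs) whose division had been stopped with mitomycin C.

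Epithelial cells hold each other through E-cadherin and tight junctions, while mesenchymal cells are loosely attached, motile and rich in vimentin and N-cadherin. The change from the first state to the second is the epithelial-mesenchymal transition. It is driven by the transcription factors of the Snail, Zeb and Twist families, of which Snail and Zeb proteins bind E-box sequences in the promoters of Cdh1 and other epithelial genes and repress them. Mouse ESCs grow as compact colonies with abundant E-cadherin, and fibroblasts pass through the reverse transition on their way to iPSCs. Fibroblasts, including feeder cells, are themselves mesenchymal and express most of the mesenchymal genes followed here.

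Levels are given in FPKM, fragments per kilobase of transcript and 1000000 mapped fragments, after all libraries were divided by 1 common constant. Differences are on the log2(FPKM + 1) scale, which understates the change of genes with a low FPKM, and come with a standard error (SE). A gene was said to rise or fall where limma gave a Benjamini-Hochberg adjusted p under 0.05 over 13693 tested genes and the log2 difference was at least 1 in size. All 10 genes passed the filter of 1 FPKM in at least 1 library. The fragments implied by the confidence limits came to 15.5 to 16.7 per library in units of 1000000. The 10 pluripotency markers were above 0 in every library, with Pou5f1 at 485 to 1020.2 FPKM, Nanog at 80.8 to 327 FPKM and Sox2 at 157 to 284 FPKM. S8 and T2 stood apart from the other libraries. The study's read table lists deeper sequencing and a lower share of uniquely mapped reads for both, although the implied fragments were alike. Genes shorter than 200 bases held 19.6% of the total FPKM in each, against 24.5% to 32.9% elsewhere. The FPKM that 1 fragment was worth, relative to R1, spread from 0.684 to 1.47 (5th to 95th percentile of genes) in S8 and from 0.692 to 1.32 in T2, against 0.874 to 1.24 in the libraries of 16-6 and 32. The limma comparisons and the epithelial minus mesenchymal level were therefore also computed from the implied fragments with 1 factor per gene, whereas ratios between genes, marker sums and likeness between genes were not.

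Cdh1 encodes E-cadherin, the adhesion molecule of the adherens junction (chr8:109127268-109194146, mm9, + strand). Its level was 154.6 and 151.4 FPKM in the libraries of R1, 159.7 and 158.6 in 16-6, 208.1 and 227.6 in 32, 270.4 in S8 and 321.8 in T2. R1 and 16-6 were the lowest lines and had overlapping confidence limits, 32 was higher, and S8 and T2 were highest. The difference between 16-6 and R1 was 0.06 (SE 0.05, adjusted p = 0.400). Cdh1 rose in T2, 2.10-fold in FPKM, by 1.07 on the log2 scale (SE 0.06, adjusted p = 0.000362). With quantile normalization this difference was 0.9997, and from implied fragments it was 0.87, both under the 2-fold minimum. In S8 and 32 the differences from R1 were 0.82 and 0.51, with adjusted p = 0.000373 and 0.00107, so that they exceeded the spread between libraries but not 2-fold.

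Epcam encodes an epithelial adhesion molecule that is also a surface marker of undifferentiated ESCs (chr17:88035319-88050467, mm9, + strand). It measured 109.3 FPKM in both libraries of R1, 139.3 and 138.9 in 16-6, 160.2 and 166.8 in 32, 262.0 in S8 and 221.7 in T2. Every iPSC library was above both R1 libraries, and the lines did not overlap. Epcam rose in S8 (2.40-fold in FPKM, log2 difference 1.25, SE 0.04, adjusted p = 7.63e-05) and in T2 (2.03-fold, 1.01, SE 0.04, adjusted p = 0.000189). Both differences came to 0.96 with quantile normalization and then missed the 2-fold minimum. In 16-6 and 32 the differences from R1 were 0.35 and 0.58.

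Esrp1 is an RNA-binding protein that sets the epithelial pattern of alternative splicing. Its level was 29.95 and 30.44 FPKM in R1, 47.99 and 46.68 in 16-6, 52.28 and 59.53 in 32, 43.54 in S8 and 52.04 in T2. R1 was again lowest, and the 4 iPSC lines lay close together. Neighbouring iPSC lines in the order 32, T2, 16-6 and S8 differed by 0.10 to 0.13, with adjusted p from 0.230 to 0.362. The differences from R1 ran from 0.51 in S8 to 0.86 in 32 and did not reach 2-fold in any line. An exon of Esrp1 overlaps the opposite-strand lincRNA gene Gm16652, and whether strand was used in counting is not given in the sources used here.

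**Figure D1:**
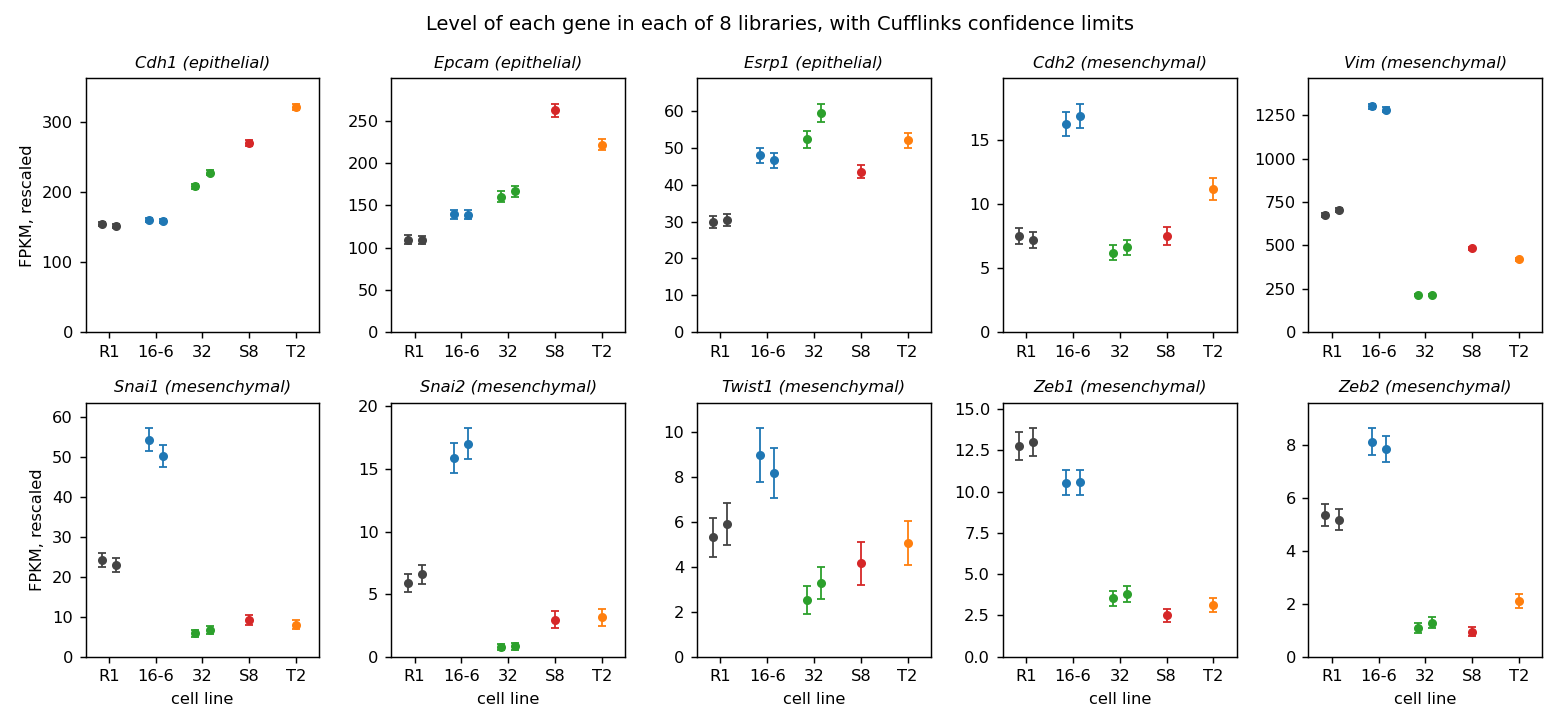
Level in FPKM (linear axis from 0) of the 3 epithelial and 7 mesenchymal genes in each of the 8 libraries, by cell line. Points are single libraries and bars are the confidence limits of Cufflinks, which cover fragment sampling only. Cdh1 and Epcam were lowest in R1 and highest in S8 and T2, whereas 6 of the 7 mesenchymal genes were highest in 16-6, and Zeb1 was highest in R1.

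Vim encodes vimentin, the intermediate filament of mesenchymal cells (chr2:13495938-13504453, mm9, + strand). It was the most abundant mesenchymal gene in each library, at 672.8 and 704.1 FPKM in R1, 1300 and 1282 in 16-6, 212.7 and 214.5 in 32, 482.9 in S8 and 421.0 in T2. The order of the lines was 16-6, R1, S8, T2 and 32, with no overlap of confidence limits between neighbours, but S8 and T2 did not differ in the test (0.20, adjusted p = 0.0593). Vim fell in 32, to 0.310 of the FPKM of R1 (log2 difference -1.68, SE 0.04, adjusted p = 2.07e-05). It was 1.88-fold higher in FPKM in 16-6 than in R1 (0.91, SE 0.04, adjusted p = 0.000182), short of the 2-fold minimum, which it passed at 1.01 with median ratio scaling. In S8 and T2 it was lower by 0.51 and 0.71, also under 2-fold.

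Cdh2 encodes N-cadherin, the cadherin that replaces E-cadherin in mesenchymal and neural cells. It was at 7.48 and 7.18 FPKM in R1, 16.21 and 16.84 in 16-6, 6.18 and 6.59 in 32, 7.48 in S8 and 11.14 in T2. The libraries of 16-6 lay above all others, T2 came next, and R1, S8 and 32 overlapped in their confidence limits. One fragment of Cdh2 was worth 1.21 times as much FPKM in T2 as in R1. With 714 implied fragments in T2, beside 576 and 559 in R1, T2 exceeded R1 by less in fragments than in FPKM. Cdh2 rose in 16-6 against R1 (2.25-fold, log2 difference 1.07, SE 0.06, adjusted p = 0.000226). In 32 and S8 the differences were -0.17 and 0.03, and the signs of both were not stable. The difference in 32 was 0.10 with quantile normalization, and that in S8 was -0.000822 without the second R1 library and -0.37 from implied fragments. E-cadherin exceeded N-cadherin in FPKM in every line, 20.9-fold in R1, 9.63-fold in 16-6, 34.1-fold in 32, 36.2-fold in S8 and 28.9-fold in T2.

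Snai1 encodes Snail, a zinc-finger repressor of Cdh1 (chr2:167363727-167368311, mm9, + strand). Its level was 24.28 and 23.08 FPKM in R1, 54.38 and 50.30 in 16-6, 5.88 and 6.77 in 32, 9.13 in S8 and 8.07 in T2. The libraries of 16-6 were highest, those of R1 intermediate, and the other lines lay together at the bottom. Snai1 rose in 16-6 (2.21-fold in FPKM, log2 difference 1.11, SE 0.08, adjusted p = 0.000465), although the difference was 0.98 from implied fragments and thus under 2-fold. It fell in 32 (-1.76, SE 0.08), S8 (-1.28, SE 0.10) and T2 (-1.44, SE 0.10), with adjusted p of 0.000101, 0.000337 and 0.000470.

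Snai2 encodes Slug, the second Snail-family repressor, which is typical of fibroblasts and neural crest. It was at 5.91 and 6.58 FPKM in R1, 15.90 and 17.01 in 16-6, 0.759 and 0.858 in 32, 2.98 in S8 and 3.17 in T2. The line means spanned a 20.3-fold range in FPKM between 16-6 and 32, the widest of the 10 genes. The values in 32 rested on 35 and 38 fragments. Snai2 rose in 16-6 (1.27, SE 0.08, adjusted p = 0.000331) and fell in 32 (-2.001, SE 0.08, adjusted p = 6.60e-05). In S8 and T2 the differences were -0.86 and -0.79, under 2-fold. One fragment of Snai2 was worth 1.74 times as much FPKM in S8 and 1.64 times as much in T2 as in R1. From implied fragments, the differences became -1.46 and -1.36 and passed the threshold.

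Twist1, a basic helix-loop-helix factor of mesoderm and mesenchyme, was the least covered gene beside Snai2, with 67 to 229 fragments per library. It measured 5.32 and 5.90 FPKM in R1, 8.97 and 8.17 in 16-6, 2.53 and 3.28 in 32, 4.15 in S8 and 5.06 in T2. The libraries of 16-6 were highest and those of 32 lowest, and T2 and S8 overlapped R1 in their confidence limits. None of the 4 iPSC lines differed from R1 by 2-fold, with differences of 0.53 in 16-6, -0.77 in 32, -0.36 in S8 and -0.12 in T2. For S8 and T2 the limma adjusted p in FPKM was 0.0740 and 0.490. As for Snai2, a fragment of Twist1 was worth more FPKM in S8 and T2 than in R1. The implied fragments were 77 in S8 and 107 in T2, beside 150 and 161 in R1. Both lines thus lay further below R1 in fragments than in FPKM, although neither passed the threshold on that scale. The FPKM values therefore do not show that Twist1 was unchanged in S8 and T2.

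Zeb1 and Zeb2 encode large zinc-finger homeodomain repressors, which are held down by the miR-200 family in epithelial cells. Zeb1 was at 12.74 and 12.99 FPKM in R1, 10.53 and 10.55 in 16-6, 3.53 and 3.78 in 32, 2.52 in S8 and 3.12 in T2. Here R1 and not 16-6 was highest. Zeb1 fell in 32 (-1.57, SE 0.06), S8 (-1.98, SE 0.07) and T2 (-1.75, SE 0.07), with adjusted p of 5.07e-05, 7.44e-05 and 0.000155, and it was lower by 0.26 in 16-6 (SE 0.06, adjusted p = 0.0124).

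Zeb2 was at 5.36 and 5.18 FPKM in R1, 8.14 and 7.86 in 16-6, 1.08 and 1.30 in 32, 0.941 in S8 and 2.12 in T2. It thus followed the order of the Snail genes at the top, with 16-6 above R1. Zeb2 fell in 32 (-1.52, SE 0.07, adjusted p = 0.000125), in S8 (-1.69, SE 0.09, adjusted p = 0.000153) and in T2 (-1.01, SE 0.09, adjusted p = 0.000952). The call in T2 was narrow and was lost with quantile normalization (-0.87), with median ratio scaling (-0.98) and without the first R1 library (-0.99). The exons of Zeb2 overlap a lincRNA gene on the opposite strand, Gm13476, and a miRNA gene on the same strand. The precursors of the miR-200 family were hardly seen in these libraries, as Mir200a, Mir200b, Mir200c and Mir141 were at 0 FPKM in all 8. Mir429 had 112 FPKM, worth 1 fragment, in the second library of 32 and 0 elsewhere. The libraries were polyA-selected and size-selected, which is unsuited to such short RNAs. The values therefore do not show whether the miR-200 family was expressed.

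The Snail and Zeb proteins recognise the E-box CAGGTG. The promoters of Epcam and Snai1 are shown because Epcam is an epithelial gene and Snai1 a repressor gene with this sequence near their start. The windows are the 250 bases before the RefSeq gene start in GRCm38.p6, Epcam at chr17:87635729-87635978 and Snai1 at chr2:167537945-167538194, both on the + strand. Capitals mark matches to CAGGTG on either strand, and the match reads CACCTG where it lies on the opposite strand.
Epcam: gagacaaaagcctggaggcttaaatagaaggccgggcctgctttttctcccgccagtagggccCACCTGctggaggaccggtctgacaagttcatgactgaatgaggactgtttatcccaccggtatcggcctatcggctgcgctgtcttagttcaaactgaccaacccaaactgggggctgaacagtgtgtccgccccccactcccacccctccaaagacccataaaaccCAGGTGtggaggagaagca
Snai1: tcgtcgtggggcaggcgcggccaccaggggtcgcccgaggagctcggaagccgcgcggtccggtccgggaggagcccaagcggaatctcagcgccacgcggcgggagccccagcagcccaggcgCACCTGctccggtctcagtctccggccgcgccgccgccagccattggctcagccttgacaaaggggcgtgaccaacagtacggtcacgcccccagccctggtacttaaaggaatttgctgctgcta
The matches in Epcam began 187 and 19 bases before the gene start, and that in Snai1 began 126 bases before it. The windows of Vim, Twist1 and Zeb2 held none, and CAGGTA, another sequence searched on both strands, was in none of the windows of these genes. Of 32851 windows of this length, 17.2% held CAGGTG and 3300 windows held CAGGTA. RefSeq promoter entries were matched for 5 of the 10 genes, and those of Cdh1, Esrp1, Cdh2, Snai2 and Zeb1 were not used here. A match describes the letters only, and binding was not measured in these libraries.

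Against R1, only mesenchymal genes of the 10 passed the threshold in 16-6, while Epcam and Esrp1 were higher by less than 2-fold (0.35 and 0.63). Of the 10 genes, 3 rose and none fell, and all 3 were mesenchymal (Cdh2, Snai1 and Snai2), where 3.58% of all tested genes rose, 3.53% fell and 7.11% passed the threshold in either direction. The median difference was 0.91 over the 7 mesenchymal genes and 0.35 over the 3 epithelial genes, beside -0.03 over all tested genes. Of the 10 genes, 9 had a higher mean in 16-6 than in R1 and Zeb1 had a lower one, while the difference of Cdh1 (0.06) did not pass the test. In 32, 5 of 10 genes fell and none rose, and all 5 were mesenchymal (Vim, Snai1, Snai2, Zeb1 and Zeb2), where 8.23% of all tested genes fell, 1.54% rose and 9.77% passed in either direction. The medians were -1.57 over the mesenchymal and 0.58 over the epithelial genes, beside -0.02 over all genes.

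In S8, 4 of the 10 genes passed the threshold, with Epcam higher and Snai1, Zeb1 and Zeb2 lower than in R1, where 6.93% of all tested genes were higher, 9.74% lower and 16.7% either. In T2, 5 of the 10 passed, with Cdh1 and Epcam higher and Snai1, Zeb1 and Zeb2 lower, where 3.95% of all tested genes were higher, 6.54% lower and 10.5% either. The median mesenchymal difference was -0.86 in S8 and -0.79 in T2, and the median epithelial difference was 0.82 and 1.01. S8 and T2 have 1 library each, so that these values have no replicate check of their own, and the test borrowed the spread of R1, 16-6 and 32. The 4 comparisons share the R1 libraries, so that a deviation of R1 enters all of them alike. With adjusted p under 0.05 and no fold minimum, 9, 10, 8 and 9 of the 10 genes passed in 16-6, 32, S8 and T2, but so did 55.6%, 61.5%, 66.7% and 57.9% of all tested genes.

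The comparison of 16-6 with 32 does not involve R1 and tests whether 2 iPSC lines of mesodermal origin differ. All 7 mesenchymal genes were higher in 16-6, where 9.22% of all tested genes were higher, 1.09% lower and 10.3% either. With adjusted p alone all 10 genes passed, beside 60.4% of all tested genes. The log2 differences were 3.27 for Snai2, 2.87 for Snai1, 2.59 for Vim, 2.04 for Zeb2, 1.31 for Zeb1, 1.30 for Twist1 and 1.25 for Cdh2, with adjusted p from 4.27e-06 to 0.000604. In FPKM, Snai1 was 8.28-fold, Zeb2 6.72-fold and Vim 6.04-fold higher in 16-6. The epithelial genes Cdh1, Epcam and Esrp1 differed by -0.45, -0.23 and -0.23 and passed no 2-fold minimum. For 1 gene with 2 libraries a line, the smallest p of an exact permutation test is 0.33, so that these adjusted p rest on the spread that limma pools over genes. They measure the spread between these libraries, which the study's methods call biological replicates without saying whether they were separate cultures.

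Lines of epithelial origin (S8 and T2) were also set against lines of mesodermal origin (16-6 and 32), as means of the line means. Only Snai1 passed the threshold, with a log2 difference of -1.04 (SE 0.07, adjusted p = 0.000297), and 2.86% of all tested genes were higher, 2.12% lower and 4.97% either. With adjusted p alone 8 of the 10 genes passed, beside 64.1% of all tested genes. Without the second library of 32 the difference of Snai1 was -0.998 and no gene of the 10 passed. Cdh1 and Epcam were higher in S8 and T2 by 0.66 and 0.67, and Zeb1 and Zeb2 lower by 0.94 and 0.85, all under 2-fold. For Esrp1 and Twist1 the differences were -0.11 and -0.12, with adjusted p = 0.162 and 0.322. The 2 mesodermal lines lay on opposite sides of S8 and T2 in mean FPKM for Cdh2, Vim, Snai1, Snai2 and Twist1, with 16-6 above and 32 below.

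**Figure D2:**
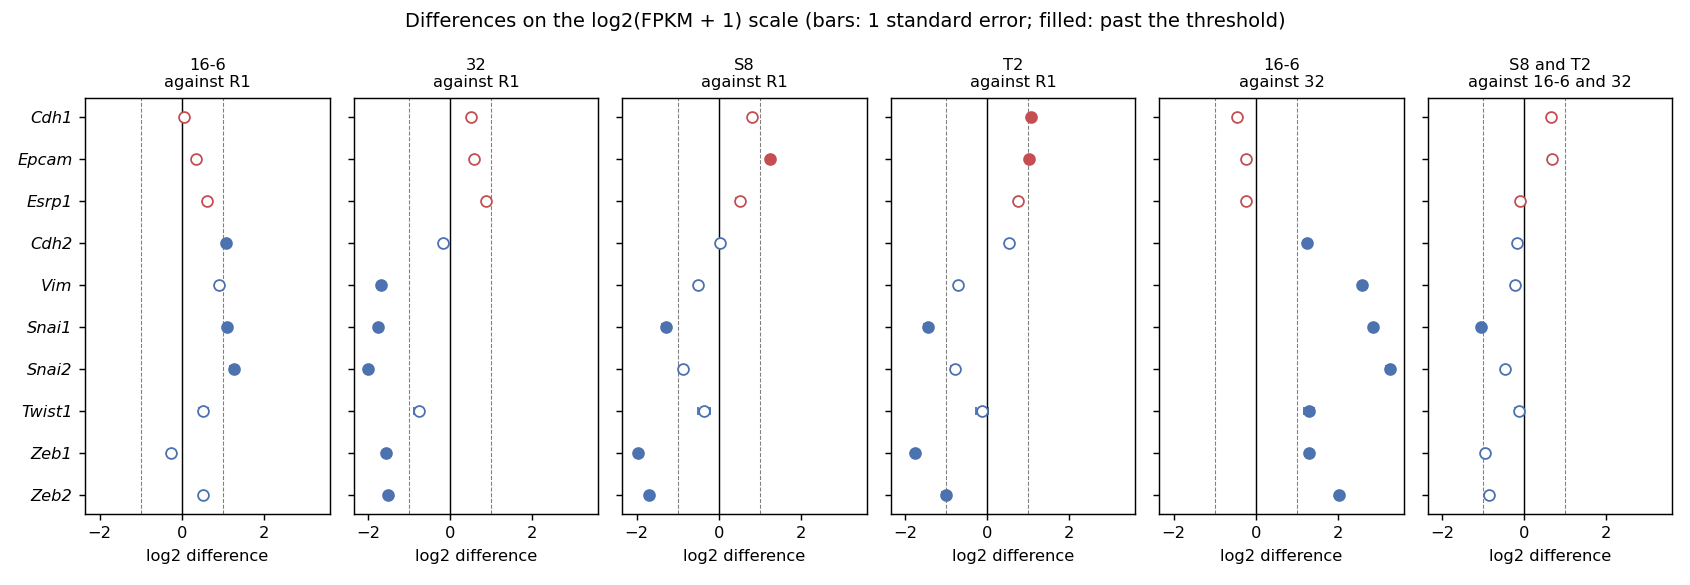
Log2 difference of the 10 genes in 6 comparisons, on the log2(FPKM + 1) scale, with bars of 1 standard error that are often smaller than the symbol. Red symbols are epithelial and blue symbols mesenchymal genes, filled symbols passed the threshold, and dashed lines mark a difference of 1. In 16-6 against 32, the 7 mesenchymal genes lie between 1.25 and 3.27, while the 3 epithelial genes lie between -0.45 and -0.23.

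The balance of both gene sets was described by the mean log2(FPKM + 1) of the 3 epithelial genes minus that of the 7 mesenchymal genes. It was 2.18 in R1, 1.79 in 16-6, 4.18 in 32, 3.99 in S8 and 3.88 in T2, with a pooled SD of 0.012 between the libraries of R1, 16-6 and 32. The lines therefore lay in 2 ranges, R1 and 16-6 below 32, S8 and T2. The 2 sets did not move as mirror images, since 16-6 was higher than R1 in both the epithelial mean (6.68 against 6.34) and the mesenchymal mean (4.90 against 4.16). Line 32 had the lowest mesenchymal mean (2.81), and T2 had the highest epithelial mean (7.29).

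Fibroblast markers had their highest summed level in 16-6 and their lowest in 32, as did 5 of the 7 mesenchymal genes (Cdh2, Vim, Snai1, Snai2 and Twist1). None of the 17 markers listed (among them collagens, Dcn, Thy1 and Pdgfrb) was at 0 in any library, and their summed level was 1224 and 1261 FPKM in R1, 3554 and 3541 in 16-6, 266 and 255 in 32, 717 in S8 and 1019 in T2. Acta2 and Tagln are part of these sums, and without them the other markers came to 1107 and 1148 FPKM in R1, 2100.4 and 2088 in 16-6, 86.0 and 84.1 in 32, 474 in S8 and 683 in T2. Col1a1, the main chain of type I collagen, was at 174 and 180 FPKM in R1, 600 and 566 in 16-6, 29.1 and 27.8 in 32, 167 in S8 and 243 in T2. Of the 17 markers, 8 rose and 2 fell in 16-6 against R1, and 1 rose and 15 fell in 32. In S8, 1 rose and 9 fell, and in T2, 2 rose and 9 fell. Of all tested genes, 3.58% rose and 3.53% fell in 16-6, and 1.54% rose and 8.23% fell in 32. In S8 these shares were 6.93% and 9.74%, and in T2 they were 3.95% and 6.54%. All 17 markers were higher in 16-6 than in 32, with a median difference of 4.31, where 9.22% of all tested genes were higher. The part of the feeder fibroblasts in the mesenchymal differences was not tested. In bulk RNA, fewer cells of a type and less RNA per cell cannot be told apart.

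The fibroblast markers and the mesenchymal genes did not keep 1 ratio across lines. Against Col1a2, another type I collagen chain, Vim stood at 4.25 in R1, 3.03 in 16-6, 15.7 in 32, 5.73 in S8 and 3.18 in T2. In S8, 1 fragment was worth 1.25 times the FPKM of R1 for Vim but 0.831 times for Col1a2. In implied fragments, this ratio was lower in S8 (8812 of Vim, 4462 of Col1a2) than in R1 (14969 and 6466, 16476 and 7902). The higher value of S8 than R1 in FPKM is thus not stable. Zeb1 stood at 0.0794 of Col1a2 in R1, 0.0247 in 16-6, 0.268 in 32, 0.0299 in S8 and 0.0236 in T2. The markers also differed among themselves. Dcn, a proteoglycan of connective tissue, was at 217 and 204 FPKM in R1 but at 32.9 and 33.3 in 16-6, where it fell by 2.63 on the log2 scale (SE 0.09), and Lum, a related proteoglycan, fell by 2.72 (SE 0.10), and both fell further in the other lines. Acta2 and Tagln, smooth muscle and myofibroblast genes, rose in 16-6 by 3.83 (SE 0.04) and 3.34 (SE 0.05). Tagln also rose in 32 by 1.03, which was 0.89 with quantile normalization and 0.87 from implied fragments. Acta2 rose in S8 (1.21) and T2 (1.63), in which Dcn fell by 4.13 in each, and Tagln rose in T2 (1.40).

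**Figure D3:**
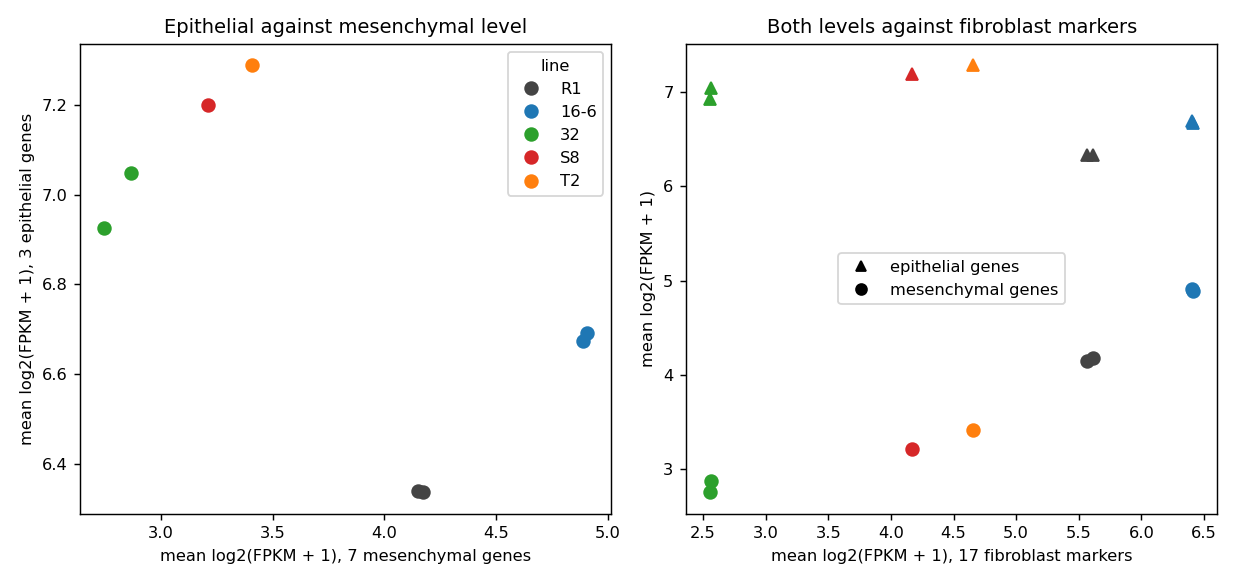
Mean log2(FPKM + 1) of the 3 epithelial genes against that of the 7 mesenchymal genes (left), and both means against that of 17 fibroblast markers (right), with 1 point per library and gene set and axes that do not start at 0. On the left, R1 and 16-6 lie at mesenchymal means of 4.15 to 4.91 and the other lines at 2.75 to 3.41. On the right, the libraries of 32 have the lowest fibroblast mean (2.56 and 2.57) and those of 16-6 the highest (6.40 and 6.41).

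Other genes of the epithelial program were followed in lists. Of 18 junction and polarity genes, 4 rose and none fell in 16-6 against R1, 4 rose and none fell in 32, 6 rose and 1 fell in S8, and 8 rose and none fell in T2, where 3.58%, 1.54%, 6.93% and 3.95% of all tested genes rose. The median differences were 0.33, 0.75, 0.53 and 0.88, beside medians between -0.03 and -0.02 over all tested genes. Cldn7, a claudin of tight junctions, rose in all 4 iPSC lines, by 1.59, 1.62, 1.78 and 2.40 (SE 0.15 to 0.18). Cldn6, a claudin of embryonic epithelia, also rose in all 4, by 1.27, 1.19, 1.66 and 1.90. Lsr, a protein of tricellular tight junctions, rose by 1.27 in 32, 1.83 in S8 and 1.43 in T2. Dsp, the desmosomal plaque protein desmoplakin, rose by 1.18 in 16-6 and 1.36 in 32 and fell by 1.01 in S8. The latter call was lost with quantile normalization (-0.77), while the fall was larger from implied fragments (-1.32). From implied fragments, 4 of the 18 rose in S8 and 6 in T2. These counts are less certain, as Lsr had 365 and 661 implied fragments in the R1 libraries at 24.9 and 23.0 FPKM.

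Of 14 epithelial regulators and membrane proteases, 4 rose in 16-6, 3 in 32, 5 in S8 and 7 in T2, and none fell in any line against R1, beside the same shares of all tested genes (3.58%, 1.54%, 6.93% and 3.95%). Prss8, the serine protease prostasin, rose by 1.67, 1.34, 2.34 and 2.49 in the same order of lines (SE 0.08 to 0.09). Mal2, a protein of apical transport, rose by 1.29, 1.07, 1.38 and 2.21. Spint2, an inhibitor of membrane serine proteases, rose by 1.98 in S8 (SE 0.11) and by 1.56 in T2. One fragment of Spint2 was worth 1.85 times as much FPKM in S8 and 1.44 times as much in T2 as in R1. From implied fragments the rise in S8 was 1.04, and that in T2 came under the 2-fold minimum. Ovol2, a repressor of Zeb1, rose by 1.10, 1.24, 1.47 and 1.38 in FPKM, and the value in 32 became 0.66 from implied fragments. In 16-6, S8 and T2, too, a fragment of Ovol2 was worth more FPKM than the mean of R1. The factor was 1.36 and 1.09 in the libraries of 16-6 and 1.77 in S8. The rises in these lines were therefore also smaller in fragments, and whether they stayed past the threshold is not given here. From implied fragments, 3 of the 14 rose in 16-6, 1 in 32, 4 in S8 and 3 in T2. These values are less certain, as the implied fragments of Ovol2 were not whole, at 17.1 and 23.6 in R1. The 4 catenin partners of the cadherins (Ctnna1, Ctnnb1, Ctnnd1 and Jup) differed from R1 by -0.31 to 0.42 and passed the threshold in none of the 6 comparisons.

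None of these 18 and 14 genes passed the threshold between 16-6 and 32, and their log2(FPKM + 1) differences ran from -0.67 to 0.57. In FPKM alone, Ovol1 was 2.03-fold higher in 16-6 at 1.77 against 0.874 FPKM. Their median differences were -0.25 and -0.23, beside -0.06 over all tested genes. In S8 and T2 against the mesodermal lines, Crb3, an apical polarity protein, was higher by 1.00 (0.99 with quantile normalization and 0.62 from implied fragments), Spint2 was higher by 1.57 (0.87 from implied fragments) and Dsp was lower by 1.49. These were the 3 epithelial list genes past the threshold there.

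Of 12 further mesenchymal regulators, 2 rose in 16-6 against R1, 6 fell in 32, 4 fell in S8 and 2 fell in T2, where 3.58% of all tested genes rose in 16-6, and 8.23%, 9.74% and 6.54% fell in 32, S8 and T2. Tgfb3, a TGF-beta ligand that induces the transition, rose by 1.60 in 16-6 (SE 0.08, adjusted p = 0.000193), and Foxc2, a forkhead factor, rose by 1.11 (SE 0.12), while in 32 they fell by 1.42 and 1.11. Twist2, the paralogue of Twist1, fell by 3.74 in 32 (SE 0.13, adjusted p = 4.63e-05), by 1.21 in S8 and by 1.49 in T2. Tgfbr2, the type II TGF-beta receptor, fell by 2.01 in 32 and 1.35 in S8. Hmga2, a chromatin protein of mesenchymal and fetal cells, fell by 1.96 in 32, 1.61 in S8 and 1.10 in T2, the latter being -0.998 from implied fragments. Smad3, which carries the TGF-beta signal to the nucleus, fell by 1.40 in S8. Between 16-6 and 32, 7 of the 12 were higher in 16-6, led by Twist2 (4.56) and Tgfb3 (3.02).

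Of 13 mesenchymal effector genes, which encode matrix, proteases and surface receptors, 9 rose and 1 fell in 16-6 against R1. Of the same genes, 12 fell in 32, 7 fell in S8 and 5 fell in T2. Beside this, 3.58% of all tested genes rose and 3.53% fell in 16-6. The shares that fell in 32, S8 and T2 were 8.23%, 9.74% and 6.54%. All 13 were higher in 16-6 than in 32 with a median of 2.84, where 9.22% of all tested genes were higher. Tnc, the matrix protein tenascin C, rose by 1.56 in 16-6 (SE 0.05) and fell by 3.58 in 32 (SE 0.05), by 1.66 in S8 and by 1.04 in T2 (SE 0.06 in each). Lgals1, which encodes galectin 1, rose by 1.57 in 16-6 and fell by 1.27 in 32. Mmp2, a gelatinase, fell by 3.15 in 32, 1.55 in S8 and 1.29 in T2. Tgfbi, a TGF-beta-induced matrix protein, was the effector that fell in 16-6 (-1.52, SE 0.10), and it also fell in 32 (-3.02), S8 (-2.79) and T2 (-2.51). Itgb3, an integrin subunit, fell by 1.74 in 32, 1.55 in S8 and 1.48 in T2. Cdh11, a cadherin of mesenchyme, was higher in 16-6 than in 32 by 4.31, and Fn1, which encodes fibronectin, was the effector that differed between S8 and T2 and the mesodermal lines (-1.06, SE 0.03). Fibroblasts express the genes of this list, and the summed fibroblast marker levels given above moved in the same direction between 16-6 and 32. Whether fibroblasts had a part in the effector differences was not tested.

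**Figure D4:**
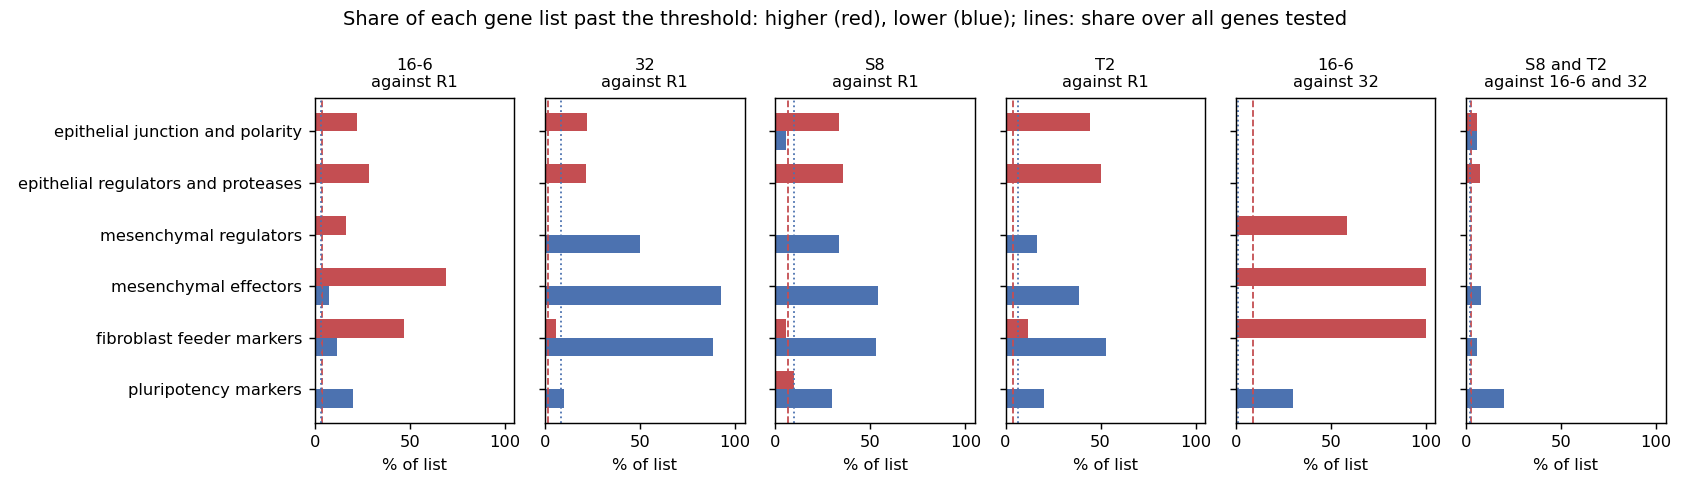
Share of each gene list (x axis, percent of the list) that passed the threshold in 6 comparisons, higher in red and lower in blue, with lines at the share over all tested genes (dashed for higher, dotted for lower). In 16-6 against 32 all mesenchymal effectors and fibroblast markers are higher and no gene of the epithelial lists passed, while against R1 the genes of the 2 epithelial lists that passed were higher, except Dsp in S8, and most of their genes did not pass in 16-6, 32 and S8.

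The genes whose levels ran most like Cdh1 and Vim over the 8 libraries were looked up among 4962 genes that varied by at least 1 on the log2 scale between lines. Those most like Cdh1 were Ccdc85c (Pearson r 0.974), 4930507D05Rik (0.971) and 2410018L13Rik (0.968). Ccdc85c had mean levels of 13.5 FPKM in R1, 16.9 in 16-6, 21.3 in 32, 32.0 in S8 and 35.0 in T2, the same order of lines as Cdh1. Those most like Vim were Plekho2 (0.998), Fez1 (0.997) and Timp1 (0.996), and Timp1, an inhibitor of matrix metalloproteinases, ran from 42.5 FPKM in 32 to 412 in 16-6. The libraries share 5 cell lines and 3 pairs of replicates, so that these are descriptions of likeness among few independent points.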

How the data were processed

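RNA-seq libraries were grouped into the lines R1, 16-6, 32, S8 and T2 from the sample labels. The authors mapped reads to mm9 with TopHat2 2.0.4 and used Cufflinks (2.0.0 in the submitters' processing notes) to estimate the FPKM that they deposited, each with a lower and an upper limit. The deposited FPKM summed to 1.14408e+10 to 1.60283e+10 per library, so every value was divided by 12725.7, which set the median total to 1000000 and kept all ratios. Read counts were not used. The fragments behind a value were implied from the width of its limits, taken as 2 Poisson SDs. They came out whole for 80.8% to 82.3% of genes with under 50 fragments, to within 0.01. Where they were not whole, the limits may not reflect a count of fragments. Lsr in R1, for example, had 365 and 661 implied fragments at 24.9 and 23.0 FPKM. Values from implied fragments are less certain for such genes.

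Genes with at least 1 FPKM in at least 1 library (13693) were fitted as log2(FPKM + 1) with limma 3.58.1 (lmFit, eBayes with trend, R 4.3.3) over 8 libraries in 5 groups, with 3 residual degrees of freedom. The fit was tested on simulated data for 16-6 against R1, where 200 of 13693 genes were changed by 2 on the log2 scale with the smoothed noise of these libraries. All were recovered (100%), with 0 false calls among the 13493 unchanged genes. The changed genes all had a mean log2(FPKM + 1) above 2. Smaller changes, and changes in genes of lower level, were not simulated. The simulation therefore does not bear on calls near the threshold. Tables and figures were made with pandas 2.3.3, numpy 2.4.6, scipy 1.17.1 and matplotlib 3.10.9 in Python 3.11.15.

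The members and the 8 other gene lists were chosen with earlier results of these data known. The genes named were all members, up to 2 genes per list, comparison and direction with the largest difference past the threshold, 3 genes most like Cdh1 and Vim, defining markers and the miR-200 precursors. Replicate pairs differed by more than counting noise (chi-square per degree of freedom 1.34, 1.08 and 1.29 in R1, 16-6 and 32), and all were kept as separate libraries. Alternatives were pseudocount 0.1, no filter, quantile normalization, median ratio scaling, no trend, no fold minimum, both 16-6 libraries as 1 sample, a replicate block, and each replicate left out in turn. The fits on implied fragments and on 6 libraries without S8 and T2 were chosen after seeing the data.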

Additional observations from a re-analysis of the deposited data

Results flagged for a closer look

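For 6 mesenchymal genes, both libraries of 16-6 lay above both libraries of R1 and both libraries of 32 lay below them, so that the 2 mesodermal iPSC lines moved to opposite sides of the ESC line. These positions chose the genes, so that the difference of 16-6 minus 32 is given as a description. On the log2(FPKM + 1) scale it was 3.27 for Snai2, 2.87 for Snai1, 2.59 for Vim, 2.04 for Zeb2, 1.30 for Twist1 and 1.25 for Cdh2. The sign of the difference of Cdh2 between 32 and R1 (-0.17) turned with quantile normalization (0.10). The summed level of 17 fibroblast markers lay at 3541 and 3554 FPKM in 16-6, 1224 and 1261 in R1 and 255 and 266 in 32, and its part in these differences was not tested.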

How the results depend on the processing

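The differences of the 10 genes in 6 comparisons gave 840 values under the alternatives with a fold minimum, of which 820 kept their direction and their side of the threshold. Of the others, 9 lost the call, 7 gained it and 4 changed sign. The sign changes were small values: Cdh2 in 32 against R1 was 0.10 with quantile normalization, Cdh2 in S8 against R1 was -0.000822 without the second R1 library (0.0515 without the first) and -0.37 from implied fragments, and Esrp1 in S8 and T2 against the mesodermal lines was 0.11 from implied fragments. The number of genes of the 10 past the threshold in T2 was 2 with quantile normalization. In S8 and T2 against the mesodermal lines it was 3 with pseudocount 0.1, 2 from implied fragments and 0 to 1 when 1 replicate was left out, with 0 without the second library of 32. The cause was not tested.

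With no fold minimum, 9, 10, 8, 9 and 8 of the 10 genes passed in 16-6, 32, S8 and T2 against R1 and in S8 and T2 against the mesodermal lines, and 7610, 8428, 9127, 7932 and 8778 of all genes did. For 16-6 against 32 it was 8265 of all genes. With pseudocount 0.1, 1690 genes passed in 16-6, 2258 in 32 and 2198 in T2 against R1, and 1271 in S8 and T2 against the mesodermal lines, beside 974, 1338, 1437 and 681 with pseudocount 1. Quantile normalization moved the split into higher and lower genes from 211 and 1127 to 413 and 731 in 32 against R1, and from 1263 and 149 to 974 and 260 in 16-6 against 32. Implied fragments moved the median over all genes in 32 against R1 from -0.02 to -0.15.

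The epithelial minus mesenchymal level of R1, 16-6, 32, S8 and T2 was 2.29, 1.85, 4.57, 4.30 and 4.11 with pseudocount 0.1, and 2.30, 1.85, 3.93, 3.77 and 3.90 with quantile normalization. From implied fragments it was 1.80 in 16-6, 4.11 in 32, 4.20 in S8 and 4.11 in T2. R1 and 16-6 stayed below the other lines in each.

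Replicate numbers were shared by R1, 16-6 and 32, but same-numbered libraries did not deviate together (correlations of -0.10, 0.00 and 0.03), so the numbers do not pair the samples. With the replicate block, 965, 1339 and 1410 genes passed in 16-6 against R1, 32 against R1 and 16-6 against 32, with the same 3, 5 and 7 of the 10 genes counted as without it.

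Depth limits Snai2 in 32 (35 and 38 fragments) and Twist1 (67 to 229 fragments) most.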

Other observations

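Of 10 pluripotency markers, 2 fell in 16-6 against R1, 1 fell in 32, 1 rose and 3 fell in S8, and 2 fell in T2, where 3.53%, 8.23%, 9.74% and 6.54% of all tested genes fell in these lines and 6.93% rose in S8. Between 16-6 and 32, 3 were lower in 16-6, beside 1.09% of all tested genes, and none of the 3 with quantile normalization. All 10 had lower means in 16-6 than in R1 and than in 32, with median differences of -0.65 and -0.80. Zfp42, a marker of naive pluripotency also named Rex1, fell in every iPSC line, by 1.92 in 16-6, 1.02 in 32, 2.18 in S8 and 2.53 in T2 (SE 0.05 to 0.06). Its level was 541 and 544 FPKM in R1, 141 and 144 in 16-6, 258 and 277 in 32, 119 in S8 and 92.9 in T2. Esrrb, an orphan nuclear receptor of the naive network, fell by 1.04 in 16-6, 1.56 in S8 and 1.73 in T2. Utf1, a chromatin-bound coactivator of ESCs, rose by 1.46 in S8, which was 0.77 from implied fragments and then under 2-fold. Nanog was lower in S8 and T2 than in the mesodermal lines by 1.24 (SE 0.03), with limma adjusted p = 6.05e-05. From implied fragments the difference was -0.48 with adjusted p = 0.623. That value rests on unlike implied fragments of Nanog in the 16-6 libraries, 426 and 2571 at 153 and 160 FPKM. It therefore does not test the difference.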
